A study of Mus musculus with 8 samples.

Results

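Replication-dependent histone genes supply the proteins that package new DNA, and their association with the binding sites of ZGLP1 is described here. They were selected by symbol, as protein-coding genes of a RefSeq gene table (mouse GRCm38) on chromosomes 3, 11 and 13 whose names begin with Hist1h to Hist4h or with H2ac, H2bc, H3c, H4c or H1f and a digit. The rule found 63 of 21900 protein-coding genes, 10 on chromosome 3, 53 on chromosome 13 and 0 on chromosome 11, where the histone genes carry other symbols. By symbol there were 6 linker histone (H1), 17 H2A, 16 H2B, 12 H3 and 12 H4 genes. The rule uses symbols and positions and no measured value, though it was set with earlier results of these data known.

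ZGLP1 is a nuclear protein with GATA-like zinc fingers, and the study's title ties it to the oogenic fate. Every library came from cells of C57BL/6 x DBA2 background in which V5-tagged Zglp1 was overexpressed under doxycycline (Dox), so all positions refer to a tagged, overexpressed protein and no library without it was analysed here. The 5 libraries from anti-V5 chromatin immunoprecipitation (ChIP) were primordial germ cell-like cells (PGCLCs, made in culture from embryonic stem cells) at culture day 7 (c7) with Dox only, c8 with Dox only, c7 with Dox and retinoic acid (RA), c8 with Dox and RA, and embryonic stem cells (ESCs) with Dox and RA for 24 h. The 3 input libraries, which had no immunoprecipitation, were c8 PGCLCs with Dox only, c8 PGCLCs with Dox and RA, and ESCs with Dox and RA. PGCLCs were grown on m220 feeder cells, treated from c3 onward and sorted as SC+ and mCherry+ cells, and ESCs as mCherry+ cells. Each group had 1 library, and which of the labelled stem cell lines gave it is not stated.

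The deposited values are the positions of 32927 peak summits in a single list that names no library and gives no height. Conditions, days and cell types therefore could not be compared, read depth is unknown, and the absence of a summit does not show that a gene was not bound. The labelled cell types could not be checked against expression, because the list holds positions only. The distances below run from a gene's nearer end to the summit, whichever end that is, so a summit inside a gene also has a distance above 0.

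Core histones H2A, H2B, H3 and H4 form the spool of the nucleosome, and linker H1 binds the DNA where it enters and leaves. Most of their genes in mammals are short, lack introns, sit in clusters and are transcribed in S phase. Their mRNAs end in a stem-loop in place of a poly(A) tail, and the factor NPAT gathers at the clusters in nuclear bodies. Many H2A and H2B genes stand head to head and share the DNA between them as a promoter.

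The promoters of the members with the closest summit in each class show where these summits lay relative to the letters of the DNA. They are RefSeq sequences of GRCm38.p6, from 250 bases before to 50 bases after the annotated start, in the direction of the gene, with promoter entries found for 58 of the 63 members. Capitals mark 4 motifs and their reverse complements wherever they occur in the window. GATA holds the core letters read by GATA factors, and CCAAT is read by NF-Y. TATAAA has the letters of a TATA box, and ATGCAAAT is the octamer read by OCT1. A mark does not assign a motif to the named gene. The H2ac8 and H2bc12 windows reach into their divergent neighbours, H2bc8 and H2ac12. The nearest H2B summit belonged to H2bc21, which has no promoter entry here, and H2bc12 stands in its place. The windows are chr13:23622509-23622808 for H1f4, chr13:23571171-23571470 for H2ac8 and chr13:22041313-22041612 for H4c9, all on the minus strand, and chr13:22035571-22035870 for H2bc12 and chr13:23535168-23535467 for H3c8 on the plus strand.
H1f4: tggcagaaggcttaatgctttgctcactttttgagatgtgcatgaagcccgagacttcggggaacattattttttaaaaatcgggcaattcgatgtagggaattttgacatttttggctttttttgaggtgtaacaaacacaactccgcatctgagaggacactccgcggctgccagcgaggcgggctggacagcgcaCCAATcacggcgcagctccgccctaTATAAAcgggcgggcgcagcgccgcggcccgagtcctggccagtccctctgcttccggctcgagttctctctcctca
H2ac8: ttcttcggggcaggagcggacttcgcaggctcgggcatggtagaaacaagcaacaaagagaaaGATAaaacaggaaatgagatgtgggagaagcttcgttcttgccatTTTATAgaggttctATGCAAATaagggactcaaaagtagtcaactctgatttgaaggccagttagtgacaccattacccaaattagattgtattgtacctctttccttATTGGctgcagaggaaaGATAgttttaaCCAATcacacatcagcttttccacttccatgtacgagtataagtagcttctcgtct
H2bc12: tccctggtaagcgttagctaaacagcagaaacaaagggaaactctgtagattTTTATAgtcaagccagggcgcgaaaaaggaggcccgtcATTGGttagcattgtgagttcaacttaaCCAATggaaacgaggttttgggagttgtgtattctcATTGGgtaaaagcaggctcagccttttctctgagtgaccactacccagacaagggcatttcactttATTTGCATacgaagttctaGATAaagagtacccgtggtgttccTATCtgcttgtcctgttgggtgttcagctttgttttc
H3c8: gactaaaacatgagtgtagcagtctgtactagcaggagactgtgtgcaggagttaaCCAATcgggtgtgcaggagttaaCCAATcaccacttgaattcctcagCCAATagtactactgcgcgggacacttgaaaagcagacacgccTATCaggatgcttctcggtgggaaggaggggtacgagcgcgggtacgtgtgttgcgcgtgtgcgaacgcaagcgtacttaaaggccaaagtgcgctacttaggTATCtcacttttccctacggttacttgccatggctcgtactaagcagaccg
H4c9: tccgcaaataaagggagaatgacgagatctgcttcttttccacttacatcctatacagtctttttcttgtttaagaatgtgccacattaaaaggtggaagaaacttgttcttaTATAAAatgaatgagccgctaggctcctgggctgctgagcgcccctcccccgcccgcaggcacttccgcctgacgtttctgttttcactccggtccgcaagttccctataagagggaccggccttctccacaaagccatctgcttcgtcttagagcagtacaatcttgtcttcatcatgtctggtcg

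In H1f4 the summit lay 40 bases after the start. It lay 8 bases after the start in H2ac8 and 6 bases after it in H4c9. In H2bc12 and H3c8 it lay before the start, at offsets of -35 and -19 bases. The H2ac8 and H2bc12 windows each held 2 GATA matches and 1 octamer match, H3c8 held 2 GATA matches and 3 CCAAT matches, and the H1f4 and H4c9 windows held 0 GATA matches.

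Most replication-dependent histone genes had a summit beside them. A summit lay within 1 kb of an end in 52 of 63 members (82.5%, exact 95% binomial interval 70.9 to 90.9), against 52.9% of all 21900 protein-coding genes. Within 10 kb the count was 58 of 63 (92.1%, interval 82.4 to 97.4), against 66.6% of all protein-coding genes. The median distance was 136 bases for the members and 657.5 bases for all protein-coding genes. The intervals cover counting error only and treat genes as independent, which clustered genes that share summits are not, and no test was made of these differences.

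Most members had a summit close to one of their ends, the 3′ end included. Of the 63 members, 27 had a summit within 100 bases of an end and 46 within 250 bases, which is 73.0%, against 37.6% of other protein-coding genes. The member just inside 1 kb was H2ac13 at 923 bases, and the one just outside was H3c14 at 1499 bases. Just inside 10 kb stood H2bc9 at 7524 bases, and just outside it H2bc23 at 15750 bases. A single summit within 1 kb was listed for 29 members, 2 summits for 19 and 3 for 4. Of the members 36.5% had 2 or more, against 17.8% of all protein-coding genes.

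Other short genes rarely had a summit. The members had a median length of 492 bases, and 58 of them were under 1 kb, against a median of 17220 bases for other protein-coding genes. The 5 longer ones are all H2B genes by symbol, H2bc21 (2667 bases), H2bc23 (3788), H2bc4 (8282), H2bc22 (14079) and H2bc6 (37455). Among the 1527 other protein-coding genes of 1 kb or less, 45 (2.95%) had a summit within 1 kb. Leaving out olfactory (Olfr) and vomeronasal (Vmn) receptor genes raised this to 7.91%. Both shares count H2aw, H3f4 and H4f16, histone genes outside the symbol rule that had a summit. Other protein-coding genes of chromosomes 3 and 13 had one in 54.0% of cases.

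**Figure D1:**
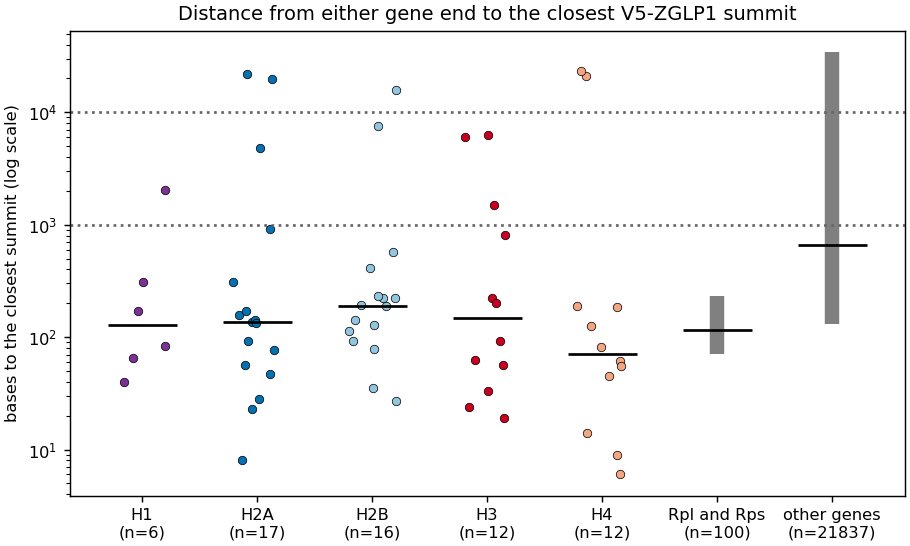
Bases from the nearer gene end to the closest summit (log axis) for each member by histone class, with class medians as black lines. Grey bars give the middle 50% and lines the median for 100 genes with Rpl or Rps symbols and 21837 other protein-coding genes. Dotted lines stand at 1 kb and 10 kb, and class medians lie between 71 and 190 bases, against a median of 664 bases for other protein-coding genes.

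The somatic linker histone genes shared an arrangement of summits. The 5 somatic genes, H1f1 to H1f5, had closest summits at 171, 65, 84, 40 and 307 bases in that order, and each had 2 summits within 1 kb. The first of the 2 lay inside the gene, at 171 bases after the start in H1f1, 68 in H1f2, 106 in H1f3, 40 in H1f4 and 334 in H1f5. The second lay past the gene's end, by 238 bases in H1f1, 65 in H1f2, 84 in H1f3, 81 in H1f4 and 307 in H1f5. The spacing between the 2 summits was 811, 721, 753, 822 and 766 bases in the same order, and the genes are 745, 725, 776, 782 and 794 bases long. No H1 gene had a summit upstream of its start within 1 kb. H1f6, which encodes the testis linker histone H1t of meiotic male germ cells, was the exception among the 6, with its closest summit 2039 bases away and 1 within 10 kb.

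Members of the core classes were less alike. Of the core members with a known direction, 17 had 2 or more summits between 1 kb before the start and 1 kb past the end. In 5 of them, H2ac21, H2ac4, H3c3, H4c2 and H4c9, the first lay inside the gene and the second past the end. Their second summits lay farther past the end than in the H1 genes, at 745, 685, 373, 913 and 523 bases in that order. Those of H2ac21 and H2ac4 also lay close to neighbours, 27 bases inside H2bc21 and 68 bases before the start of H3c2. Another 5 had one upstream and the next past the end, 3 had one upstream and the next inside, and 4 had the first 2 upstream. Among the 3 with the next inside, H2bc22 and H2bc6 are annotated as 14079 and 37455 bases long. Their inner summits lay 3179 and 35677 bases after the start. These counts rest on few genes and were made after the positions were seen. For scale, the shortest distance between neighbouring summits anywhere in the list was 397 bases.

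Of the 17 H2A genes, whose product pairs with H2B in the nucleosome, 14 (82.4%) had a summit within 1 kb, with a median distance of 136 bases. The closest were those of H2ac8 at 8 bases, H2ac10 at 23 and H2ac15 at 28, and the other 11 within 1 kb ran from 47 to 923 bases. H2ac6 had 3 summits within 1 kb, at offsets of -911, -127 and 439 bases from its start. The farthest were H2ac24 at 22120 bases and H2ac23 at 19705, and H2ac19 followed at 4812 bases. The H2A members thus divide into 14 between 8 and 923 bases and 3 at 4812 bases or more.

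Of the 16 H2B genes, 14 (87.5%) had a summit within 1 kb, with a median distance of 190 bases. H2bc21 at 27 bases, H2bc12 at 35 and H2bc3 at 79 were closest, and the other 11 within 1 kb ran from 93 to 572 bases. H2bc4 had 3 summits within 1 kb and shares them with its neighbour H2ac6. The farthest were H2bc23 at 15750 bases and H2bc9 at 7524, both with 0 summits within 1 kb. For the 12 H2B members with a known direction and a summit within 1 kb of the start, the closest one lay upstream in 9. Over all 12 the median offset was -135 bases. In H2A the split was 7 upstream and 7 downstream. These splits are not independent. The summits upstream of H2bc15, H2bc8, H2bc7 and H2bc1 are those inside H2ac15, H2ac8, H2ac7 and H2ac1.

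Of the 12 H3 genes, 9 (75.0%) had a summit within 1 kb and 12 within 10 kb. H3c8 at 19 bases, H3c3 at 24 and H3c6 at 33 were closest, and the other 6 within 1 kb ran from 56 to 816 bases. H3c2 had 3 summits within 1 kb and 11 within 10 kb, the most of any member at the wider distance. The 3 without one within 1 kb were H3c14 at 1499 bases, H3c15 at 6059 and H3c7 at 6277.

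H4 genes, which encode the most conserved core histone, held both the closest and the farthest summits of the set. A summit lay within 1 kb in 10 of 12 (83.3%), with a median distance of 71 bases. H4c9 stood at 6 bases, H4c14 at 9 and H4c11 at 14, and the other 7 within 1 kb ran from 45 to 190 bases. H4c8 had 3 summits within 1 kb, at -752, -61 and 676 bases from its start, and the one at -752 lay 56 bases from a transfer RNA gene. H4c18, at 23398 bases, and H4c17, at 21084, had none within 10 kb. The class shares ran from 75.0% to 87.5%, with intervals that overlap widely, so these counts do not order the classes.

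**Figure D2:**
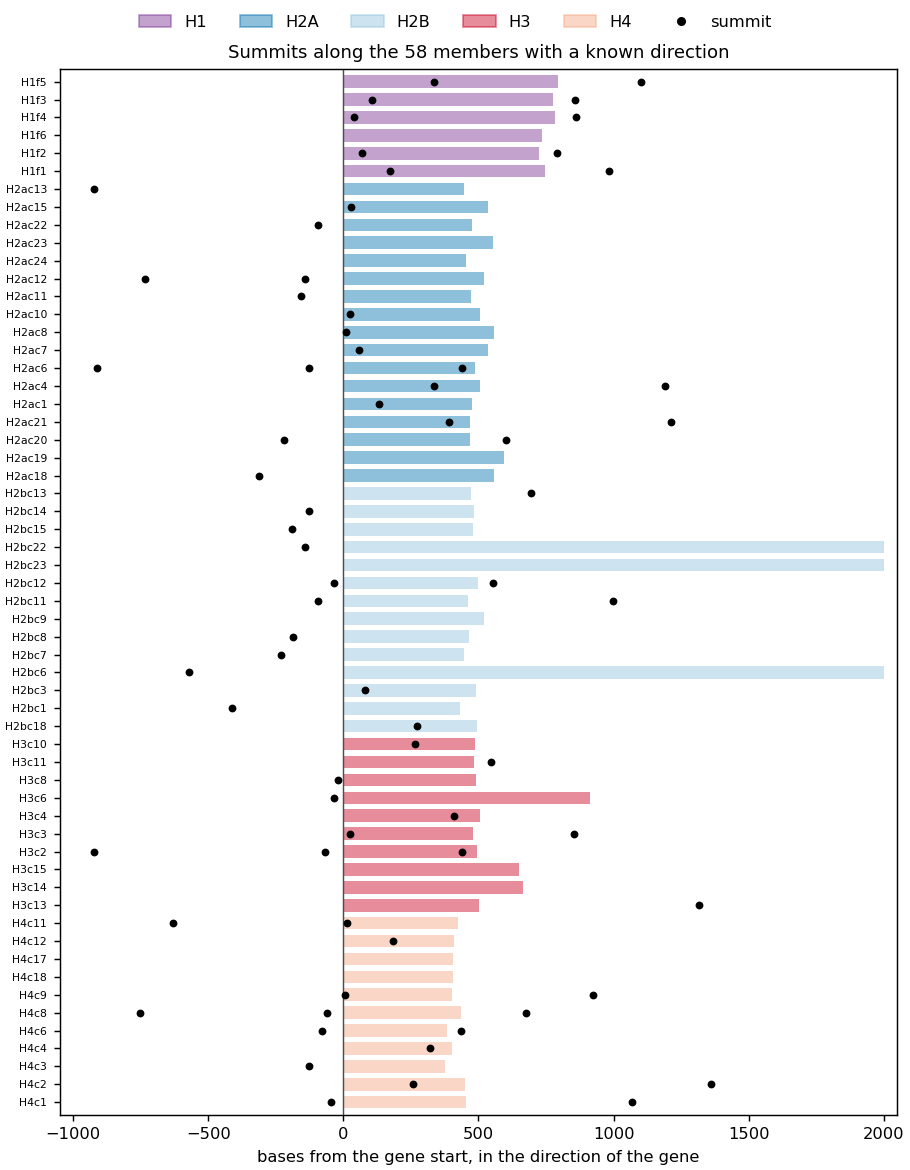
Summits (black points) along the 58 members with a known direction, in bases from the gene start in the direction of the gene, with each gene drawn as a bar coloured by class and cut at 2000 bases. In H1f1 to H1f5 a summit lies inside the gene and another just past its end, 721 to 822 bases apart.

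Positions relative to the start could be read for the 58 members whose direction is known. Within 1 kb of the start there was a summit in 47 of 58, against 55.7% of protein-coding genes with a promoter entry, and within 250 bases in 33 of 58, against 44.5%. The closest one lay upstream in 23 of the 47 and at or after the start in 24, with a median offset of 6 bases. In 26 of the 58 members a summit fell inside the 300 base promoter window. There were 73 pairs of a member and a summit between 1 kb before its start and 1 kb past its end. The summit was upstream in 28, inside the gene in 26 and past the end in 19. Shares of other genes were not computed for the promoter window or for these places, so neither count sets the members apart. H2bc21, H2bc4, H3c1, H3c7 and H4c14 had no promoter entry.

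Neighbouring H2A and H2B genes often had a summit in or near the DNA between them. Among neighbouring members under 1 kb apart there were 11 pairs of an H2A and an H2B gene, with gaps of 163 to 280 bases, 9 of them known to be divergent. A summit lay within 200 bases of a facing end in 9 of the 11. It lay in the gap itself in 4, between H2ac22 and H2bc22, H2ac12 and H2bc12, H2ac11 and H2bc11, and H2ac6 and H2bc4. In 5 it lay just inside a gene, 8 bases into H2ac8, 27 into H2bc21, 28 into H2ac15, 56 into H2ac7 and 133 into H2ac1. Of the 9 pairs known to be divergent, 7 had a summit within 200 bases of a facing end, 3 of them in the gap. The exceptions were H2bc13 with H2ac13, whose nearest summit was 694 bases from the facing end of H2bc13 and past its other end, and H2bc23 with H2ac23, at 19537 bases. Of the 12 other close pairs, 4 had a summit within 200 bases of a facing end. The median gap was 191 bases in the H2A and H2B pairs, against 651.5 bases in the other pairs.

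Neighbouring members share summits. The 79 links of a member to a summit within 1 kb rested on 58 distinct summits, 19 of them within 1 kb of 2 or more members and at most 3 members to a summit. Where each summit was given only to the nearest protein-coding gene, 65.1% of members kept one within 1 kb. The difference from other protein-coding genes was then 16.2 percentage points, in place of 29.7.

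The testis histones H2ac1 (TH2A) and H2bc1 (TH2B), which accumulate in male germ cells, stand alone at the edge of the chromosome 13 cluster. They share a single summit, 133 bases inside H2ac1 and 414 bases from H2bc1, with no other summit within 10 kb of either. With H1f6, 2 of the 3 testis-enriched members had a summit within 1 kb.

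Members fell into 5 runs when neighbours over 100 kb apart were separated, a division made after their positions were seen. The chromosome 3 run (96219885 to 96270192) held 10 members, of which 7 had a summit within 1 kb, and 5 summits. On chromosome 13 the first run (21715711 to 21833475) held 17 members and 12 summits, with 12 members having one within 1 kb. The next (22035122 to 22043658) held 5 members, all with a summit within 1 kb, and 5 summits in 8.54 kb. The largest (23531044 to 23764412) held 29 members, 26 with a summit within 1 kb, and 34 summits, 32 of them within 1 kb of a member. The last (23933725 to 23934913) is the H2bc1 and H2ac1 pair. By chromosome, the median distance was 128 bases for the 53 members of chromosome 13 and 266 bases for the 10 of chromosome 3, where 3 of the 10 lack a summit within 1 kb.

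Summit density in the runs was above that of their whole chromosomes, but not always above that of the DNA beside them. There were 99.4 summits per Mb in the chromosome 3 run, against 9.16 over the annotated span of chromosome 3. The 3 runs of chromosome 13 with more than 2 members had 102, 586 and 146 per Mb, against 11.4 on chromosome 13 and 13.4 over the autosomes. The DNA between the first and the next of these runs, which holds no member and has many transfer RNA genes, had 134 per Mb, above the chromosome 3 run and the first chromosome 13 run. Members are packed closely there, so density and the share of genes with a summit are not separate results. The non-histone gene inside the largest run, Hfe, a regulator of iron uptake, had its closest summit 3450 bases away.

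**Figure D3:**
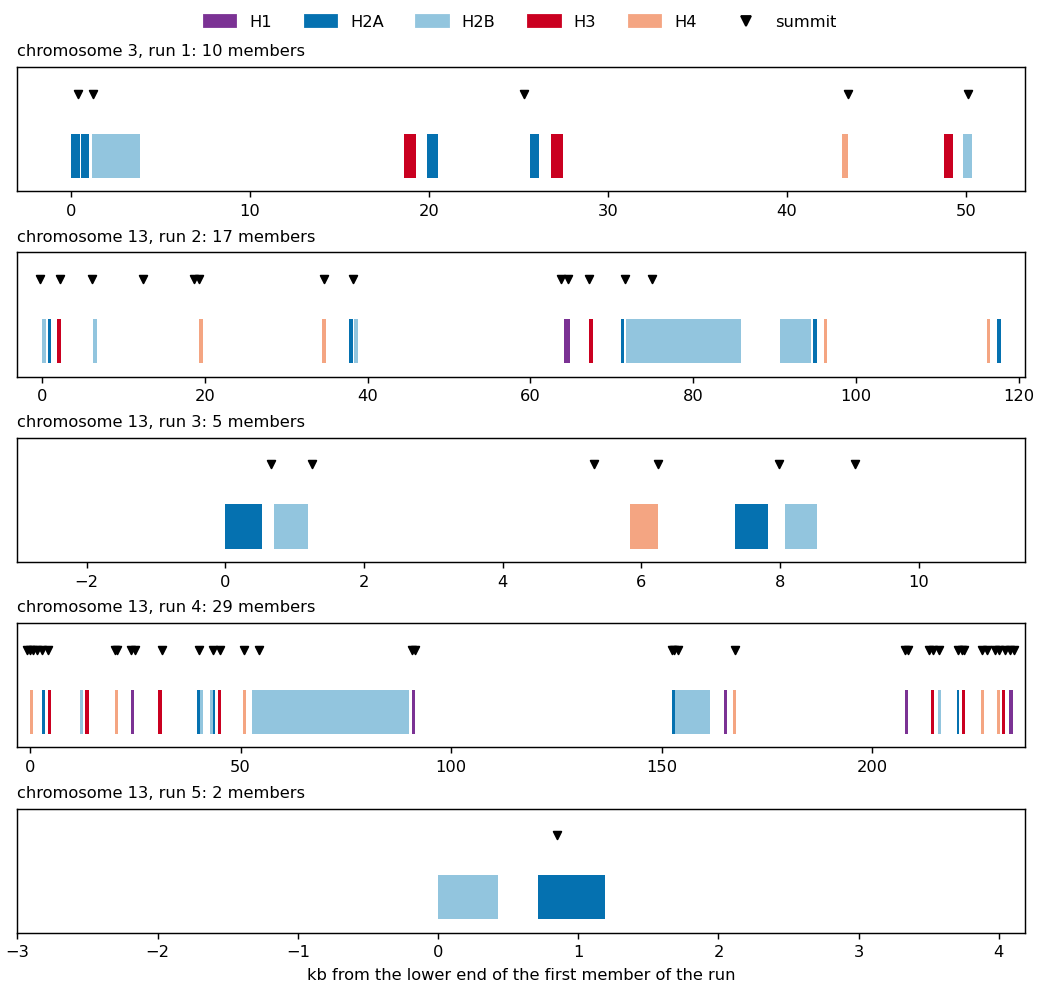
The 5 runs of members in kb from the lower end of the first member, with genes as bars coloured by class (drawn with a minimum width) and summits up to 3 kb beyond a run's ends as triangles. The first chromosome 13 run (run 2) has 12 summits between its ends, and none over its last 5 members.

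Several members without a summit were neighbours. Of the 11 without one within 1 kb, the 5 also without one within 10 kb follow each other, H2bc23, H2ac23, H4c17, H4c18 and H2ac24. They lie in a stretch of 64.9 kb on chromosome 13 with no summit, between those at 21790662 and 21855595. Another 3 were H2ac19, H3c15 and H3c14, which stand around H2ac18 on chromosome 3. H2bc9 and H3c7 adjoin each other in the largest run, and H1f6 was the last.

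Many of these genes have near-copies. The share of a promoter's 50-base words that also occur in the promoter of another, non-overlapping gene was 50% or more in 8 of the 10 such members with a promoter entry, and in 1 of the 48 members with a summit. That share was 100% in H2bc23, 94.0% in H4c17 and H4c18, 86.9% in H2ac23, 74.1% in H3c14 and H3c15, 73.3% in H2ac24 and 67.7% in H2ac19. The partners were other members or H4bc24, a gene beside H2ac24 that is not a member and had no summit within 10 kb. H2ac18 was the member with 67.7% and a summit, at 311 bases, and its partner is H2ac19. H2bc9 and H1f6 shared no such word.

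The promoters of H4c17 (chr13:21811496-21811795, plus strand) and H4c18 (chr13:21832148-21832447, minus strand) had 99.0% of aligned positions identical, the highest of the pairs given here. The share was 90.2% between H3c14 and H3c15, 75.3% between H2ac18 and H2ac19 and 50.0% between H2ac23 and H2ac24. That 50.0% stands beside shared-word values of 86.9% in H2ac23 and 73.3% in H2ac24. Why the measures differ was not tested. Capitals again mark the 4 motifs.
H4c17: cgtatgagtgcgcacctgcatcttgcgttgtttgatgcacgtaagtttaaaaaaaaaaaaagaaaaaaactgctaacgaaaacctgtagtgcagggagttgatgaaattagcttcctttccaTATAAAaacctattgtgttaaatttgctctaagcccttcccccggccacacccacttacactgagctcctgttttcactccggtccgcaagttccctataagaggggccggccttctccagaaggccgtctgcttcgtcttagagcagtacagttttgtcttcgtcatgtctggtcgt
H4c18: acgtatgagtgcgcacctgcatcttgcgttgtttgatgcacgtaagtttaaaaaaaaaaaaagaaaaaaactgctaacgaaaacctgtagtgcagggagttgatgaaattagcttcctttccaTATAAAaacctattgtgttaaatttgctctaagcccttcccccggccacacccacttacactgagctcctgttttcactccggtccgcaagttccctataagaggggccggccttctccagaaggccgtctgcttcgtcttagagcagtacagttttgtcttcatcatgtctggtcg

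Other genes were split by the same measure. With no shared word, 45 of 47 members (95.7%) and 59.0% of 19318 other protein-coding promoters had a summit within 1 kb of the gene. With some but under 50% shared, 2 of 2 members and 8.60% of 919 other promoters did. With 50% or more shared, 1 of 9 members (11.1%) and 1.14% of 967 other promoters did. Reads from identical copies match several places, and the authors' handling of them was not given in the sources used here. The part of this in the missing summits was not tested. H4c11 and H4c12, which share 11.6% of their words with each other, had summits at 14 and 185 bases.

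**Figure D4:**
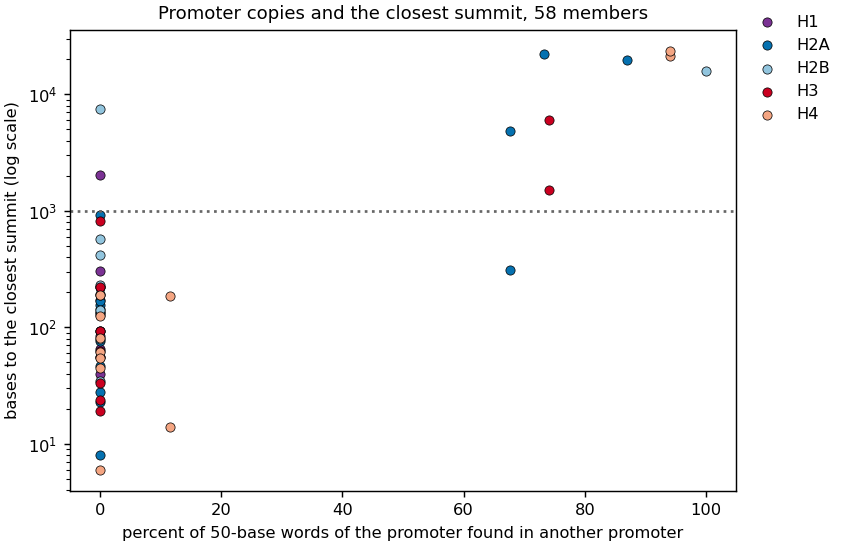
Percent of a promoter's 50-base words that occur in another gene's promoter, against bases to the closest summit (log axis), for 58 members coloured by class, with a dotted line at 1 kb. Of the 9 members at 50% or more, 8 lie above 1 kb, and of the 49 below 50%, 2 do.

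The promoters of the members differed in letters from those of other genes. GATA on either strand was in 32 of 59 member promoters (54.2%, with 2 promoters for H2bc6), against 53.2% of 21204 other protein-coding promoters and 57.9% of all 32851 promoters in the table. AGATAA, which contains GATA, was in 18.6% against 9.63% and 11.2% of all, and TGATAA in 5.08% against 7.61% and 9.05% of all. CCAAT was in 86.4% against 38.1% and 37.4% of all, TATAAA in 57.6% against 12.5% and 13.6% of all, and ATGCAAAT in 22.0% against 1.60% and 1.74% of all. CCAAT was in every H1, H2A, H2B and H3 promoter and in 27.3% of H4 promoters, while the 13 with ATGCAAAT were 6 H2A and 7 H2B promoters.

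Base composition went the other way from that of other genes with summits. Median GC content was 45.3% in member promoters, 44.3% in those with a summit within 1 kb and 51.2% in those without. Among other protein-coding promoters it was 61.3% where the gene had a summit within 1 kb and 49.3% where it had none. The windows of divergent pairs overlap, as 18 of 58 member promoters overlap that of another member, so their letters are counted more than once. Motif shares by summit also differed in order between members and other genes. AGATAA was in 22.4% of the 49 promoters of members with a summit and 0 of the 10 without, against 5.78% with and 14.2% without among other promoters. TATAAA was in 65.3% with and 20.0% without, against 6.61% and 19.4% among other promoters, and ATGCAAAT in 26.5% with and 0 without, against 1.22% and 2.06%. GATA was in 55.1% with and 50.0% without, against 43.2% and 65.0%. Only 10 member promoters lack a summit, 8 of them the near-copies above, so a count of 0 there carries little weight. A match is a description of the letters and not a binding site.

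Genes that serve the histone supply were described by lists, beside the same 52.9% of all protein-coding genes within 1 kb. Among 16 regulators of histone gene transcription, 13 had a summit within 1 kb and 16 within 10 kb. Casp8ap2, which encodes the histone locus body protein FLASH, stood at 5 bases, Gapdh, whose product has been found in an OCT1 coactivator of human H2B genes, at 26, and Hinfp, which binds H4 promoters, at 36. Npat, chosen after its values were seen, had 2 summits, the closest at 79 bases. Ccna2, Ldha and Nfyc had none within 1 kb, at 1148, 3188 and 5916 bases.

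Among 20 genes of histone mRNA processing and decay, 19 had a summit within 1 kb. Zfp473, whose human counterpart joins the stem-loop to the U7 machinery, stood at 4 bases, Coil, for the Cajal body protein coilin, at 12 and Ncbp2, of the cap-binding complex, at 29. Slbp, which encodes the stem-loop binding protein and was chosen after its values were seen, had 2 within 1 kb, the closest at 206 bases. The X-linked Cstf2, a cleavage factor gene, had none within 10 kb.

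Of 22 histone chaperone genes, 19 had a summit within 1 kb and 22 within 10 kb, with Chaf1b (chromatin assembly factor) at 3 bases and Hira and Ubn1 (of the HIRA complex, which deposits H3.3) at 11 and 14. Of 35 genes of the replication fork, 32 had one within 1 kb and 35 within 10 kb, closest in Rfc4 at 1 base, Gins3 at 2, and Cdt1 and Pold1 at 31. Of 17 genes for replication-independent histone variants, 12 (70.6%) had one within 1 kb and 14 within 10 kb. H3f3a, for H3.3, stood at 23 bases, H1f8, the oocyte linker histone, at 32 and H1f10 at 116, while H1f7, H2ab1 and H2al2a, variants known from the testis, had none within 10 kb.

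Of 100 genes with symbols that begin with Rpl or Rps and a digit, or with Rplp, 88 (88.0%) had a summit within 1 kb. Most such symbols name ribosomal proteins, used by all growing cells, but the pattern also fits Rps6k kinase genes. Among 397 Zfp zinc finger genes, 276 (69.5%) had a summit within 1 kb. The 82.5% of the histone genes lies between the values of those groups. No test of these differences was made, and these groups do not show whether the histone genes differ from other genes used widely by dividing cells.

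**Figure D5:**
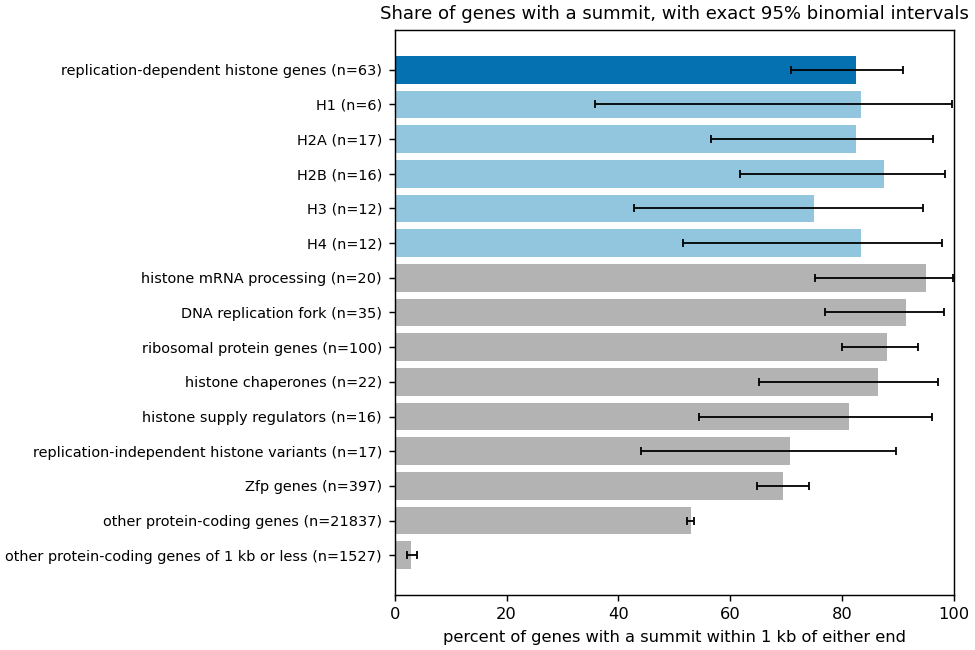
Percent of genes with a summit within 1 kb of either end for all members (dark blue), each histone class (light blue) and the groups they are set beside (grey), with exact 95% binomial intervals for counting error. All members stand at 82.5%, other protein-coding genes at 52.9% and other protein-coding genes of 1 kb or less at 2.95%. The group labelled ribosomal protein genes is the 100 genes with Rpl or Rps symbols.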

How the data were processed

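Anti-V5 ChIP was sequenced in 5 libraries and input DNA in 3. Per the submitters' processing notes, HOMER 4.9.1, MACS2 2.1.1.20160309, bedtools, Bowtie 1.1.2, SAMtools 1.3, cutadapt 1.9.1, Trim Galore 0.4.1 and Picard 2.1.0 were used with build mm10. Their settings, the peak threshold, the libraries behind the list and the handling of reads with several matches are not given in the sources used here. The authors deposited summit positions in bases, with start equal to end for all 32927, so whether they count from 0 or 1 moves a distance by at most 1 base.

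Gene ends, promoter sequences and directions came from RefSeq tables of GRCm38.p6. Distances run from either gene end. Other protein-coding genes were the background, and list members were matched by symbol (Spt2 of the chaperone list was not matched). Shares carry exact 95% binomial intervals, for counting error only. Promoters were compared by shared 50-base words and by global alignment (match 1, mismatch -1, gap opening -2, extension -0.5). No test was made: the members and lists were chosen with earlier results of these data known, and the list names no library.

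Genes were named as the 3 closest and 2 farthest of each class, those with most summits, those with none within 10 kb, the testis-enriched members and the 3 closest of each list, with up to 3 lacking a summit within 10 kb. Others, among them list genes lacking one within 1 kb, were chosen after their values were seen. Alternatives covered the window, merged summits, nearest gene, start only, the background and the membership. Distances were tested on simulated data. Biopython 1.88, SciPy 1.17.1, pandas 2.3.3, matplotlib 3.10.9, numpy 2.4.6 and Python 3.11.15 were used.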

Additional observations from a re-analysis of the deposited data

How the results depend on the processing

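Of 42 alternative values, 33 stayed within the 95% interval of the reported value (for the number of summits, within 1.5 times) and 9 moved outside it, with 0 changes of sign. With each summit given only to its nearest gene, members with a summit fell to 65.1% within 1 kb and 69.8% within 10 kb, and the difference from other protein-coding genes at 1 kb, reported above as 82.5% against 52.9%, was 16.2 percentage points in place of 29.7. A window of 50 kb took the 92.1% within 10 kb to 100%. Merging summits within 1 kb took the median distance to 192 bases from 136. The next alternatives were chosen after seeing the data. Against other genes of 1 kb or less the difference was 79.6 points. Without the 9 members whose promoters share 50% or more of their 50-base words, the shares were 94.4% within 1 kb and 100% within 10 kb, and the difference was 41.6 points, because 8 of the 9 have no summit within 1 kb. The cause of the other changes was not tested. A stricter peak threshold was not run, since the list has no score. No paired analysis was possible because no group held more than 1 library and summits carry no library name. Read depth is unknown, so an absent summit is no measure of absent binding.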

Other observations

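Histone genes outside the symbol rule also had summits. On chromosome 11, H2aw (58954685 to 58955192) had 3 within 1 kb, the closest at 20 bases, H3f4 had 1 at 188 bases, and H2bu2 had none within 1 kb but 4 within 10 kb. On chromosome 6, H4f16, an H4 gene standing apart from the clusters, had 2, the closest at 219 bases. The pseudogenes H2ac14 and H2ac5-ps within the chromosome 13 runs stood at 115 and 299 bases from a summit. Their neighbouring members share these summits.

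The DNA between the chromosome 13 runs had summits too, mostly at transfer RNA genes. Between the first 2 runs (202 kb) there were 27 summits, 22 of them within 1 kb of a transfer RNA gene, and 24 of the 31 transfer RNA genes there had a summit within 1 kb. In the next gap there were 41 summits, 33 within 1 kb of a transfer RNA gene, and 40 of its 46 transfer RNA genes had one. The 41 include summits counted above with members, at 538 bases from H2bc11 and at 752 and 61 bases from H4c8. The same gap held 36 vomeronasal receptor genes, of which 0 had a summit within 1 kb. Of the 58 summits within 1 kb of a member, 2 were also within 1 kb of a transfer RNA gene, and 1 was closer to it than to a member. In the gap between the largest run and the H2bc1 and H2ac1 pair, 1 summit was listed in 169 kb. It lay 238 bases past the end of H1f1 and is counted above with that gene. Of the 5 genes in this gap, Trim38 and Slc17a1 to Slc17a4, 0 had a summit within 1 kb.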
